A study of Homo sapiens with 6 samples.

Results

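PIEZO1, the lamins and the linkers of the nuclear envelope form a chain through which force at the cell surface can reach the chromatin, and their transcripts were followed here after knockdown of UBE2A and UBE2B. The 10 genes were taken by name, with earlier results of these data known. They were PIEZO1, SUN1, SUN2, SYNE1, SYNE2, LMNA, LMNB1, LMNB2, EMD and TMPO. All 10 were found among the 19922 genes shared by both deposited tables. The study asked what UBE2A and UBE2B, the human counterparts of the yeast ubiquitin-conjugating enzyme RAD6, do in mechanotransduction and contact inhibition. RNA was sequenced from HEK293A cells, a derivative of the human embryonic kidney line HEK293, 48 h after treatment. The knockdown group had 3 libraries from cells given siRNAs against UBE2A and UBE2B together, at 25 uM each per the labels, and the control group had 3 libraries from cells given vehicle. For both groups the labels give 10000 cells seeded per cm2 in 60 mm dishes, with 10% serum. Culture for 18 to 24 h came before treatment, and 18.6 ul of reagent is listed for controls and knockdowns alike. No non-targeting siRNA was among the samples, so a general response to siRNA and the loss of the targets cannot be told apart. Replicates 1 and 2 of each group stood in one table (the first table), and 1 more library of each group stood in another (the second table), whose columns named a control and RAD6 but no replicate.

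The 6 libraries held 10887217 to 14564624 reads assigned to genes, and 3 reads were worth 0.207 to 0.272 CPM, the read count scaled to a common library total. UBE2A was lower in each knockdown library, at 49.1 to 57.7 CPM against 97.9 to 105 CPM in the controls (log2 fold change -0.93, edgeR adjusted p = 1.64e-12). UBE2B was lower by less, at 46.0 to 55.0 against 61.2 to 64.1 CPM (log2 fold change -0.30, edgeR adjusted p = 0.0127). With the group as the sole term neither call was kept (edgeR adjusted p of 0.0668 and 1.00). That UBE2B call was kept in 2 of 6 fits with 1 library left out, with adjusted p up to 0.190 in the others (without control replicate 2, knockdown replicate 1 or either library of the second table). The 8 genes checked as markers of the HEK293 line summed to 1851 to 2067 CPM among the controls and to 1440 to 1854 CPM among the knockdowns. Of these, NEFM stayed between 0.544 and 2.01 CPM and PAX2 between 1.95 and 4.44 CPM. KRT8 was the largest of the 8, at 856 to 1227 CPM, with means of 1156 among the controls and 934 among the knockdowns. LIN28B had means of 81.8 CPM among the controls and 55.3 CPM among the knockdowns, and KRT18 of 258 and 205 CPM. VIM was level (means of 160 and 159 CPM), and PAX2 alone had a higher mean among the knockdowns (3.68 against 2.78 CPM). The 9 markers of leukocytes, endothelium, fibroblasts, keratinocytes and hepatocytes summed to 27.5 to 47.1 CPM among the controls and 28.8 to 42.0 CPM among the knockdowns. Nearly all of that was COL1A1 (26.5 to 46.0 CPM), and the leukocyte markers PTPRC and CD3E were at 0 in each library. In RNA from whole cultures, fewer cells with a transcript and less of it per cell cannot be told apart.

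PIEZO1 is a cation channel of the plasma membrane that opens when the membrane is stretched. Inside the cell, the giant nesprins SYNE1 and SYNE2 bind the cytoskeleton and cross the outer nuclear membrane, and SUN1 and SUN2 cross the inner one. Nesprins and SUN proteins meet between the membranes as the LINC complex. On the inner side lies the lamina, a mesh of A-type lamins (lamins A and C, both from LMNA) and B-type lamins (LMNB1 and LMNB2), to which emerin (EMD) and the LAP2 proteins (TMPO) bind. The A-type lamins rise with tissue stiffness and stiffen the nucleus, and the B-type lamins are made in nearly all cells.

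The coding ends of the lamins and giant nesprins are shown because they carry the parts that anchor this chain, and because the enzyme that trims one of them was the one lamin-processing gene to pass the test below. Each is the last 27 coding bases before the stop codon, from the GENCODE 29 transcripts on GRCh38, with the final 4 codons in capitals. In the lamins the capitals are the CaaX box, which opens with a cysteine codon and is the site of farnesylation; the LMNA end is that of prelamin A, which is spliced across an intron, and lamin C lacks it. In the nesprins the capitals open with 3 proline codons and belong to the KASH tail that inserts into the SUN domain.
LMNA (chr1:156138755-156139103, plus strand, exons joined): cagagcccccagaacTGCAGCATCATG
LMNB1 (chr5:126836235-126836261, plus strand): gcatccaatagaagcTGTGCAATTATG
LMNB2 (chr19:2430914-2430940, minus strand): accacctcaagaggcTGCTACGTGATG
SYNE1 (chr6:152122439-152122465, minus strand): agatacacgaatggcCCTCCTCCACTC
SYNE2 (chr14:64225497-64225523, plus strand): aggtacaccaatgggCCACCCCCCACA

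The counts are per gene, so prelamin A and lamin C, or nesprin forms with and without these ends, were not separated.

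All 10 genes were expressed in each library, and their order per length was the same in each of the 6. On the scale of the deposited FPKM (reads per kilobase of gene model, per the library total), the B-type lamins were highest, with LMNB2 at 96.4 to 127 and LMNB1 at 88.3 to 112. EMD followed at 43.7 to 61.3, then TMPO at 35.4 to 42.8 and LMNA at 26.8 to 32.0. SUN1 lay at 18.3 to 20.7, PIEZO1 at 12.5 to 14.7, SUN2 at 5.13 to 9.83, SYNE2 at 3.81 to 4.57 and SYNE1 at 1.11 to 1.44 FPKM. Each gene was above the next one in this order in 6 of 6 libraries. The ranges of LMNB2 and LMNB1 overlapped across libraries, with means that differed 1.11-fold, and no other neighbours overlapped. The gene models of SYNE1 and SYNE2 joined exons of many isoforms, to 47523 and 32359 bases in the first table. Their FPKM is therefore low for any isoform that is shorter. The order of the other genes also depends on model length, with 8141 bases for LMNA and 1995 for EMD in the first table. In CPM, not divided by length, LMNA averaged 242 and EMD 98.1, the reverse of their order in FPKM.

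**Figure D1:**
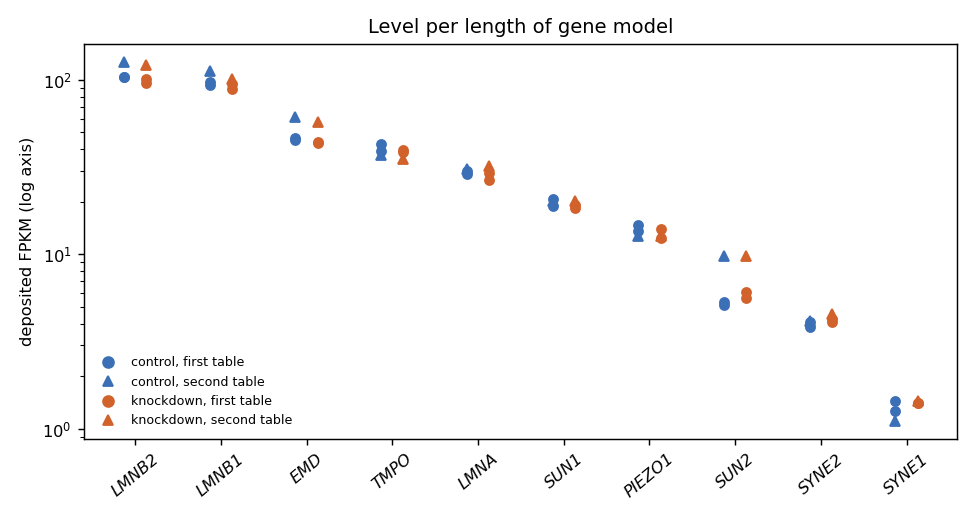
Deposited FPKM (log axis) of the 10 genes in the 6 libraries, ordered by mean, with controls in blue, knockdowns in orange, the first table as circles and the second as triangles. LMNB2 is highest (96.4 to 127 FPKM) and SYNE1 lowest (1.11 to 1.44 FPKM), and control and knockdown points lie side by side within each gene.

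After knockdown none of the 10 genes passed the test. The quasi-likelihood test of edgeR, with the table as a covariate and p-values adjusted over 13629 genes, called 0 of the 10 at an adjusted p under 0.05, where 2.47% of all tested genes passed (0.638% higher and 1.83% lower). One, LMNB1, had an unadjusted p under 0.05, against 14.1% of all tested genes. DESeq2 and limma-voom with the same covariate also called 0 of 10, each with LMNB1 alone under an unadjusted p of 0.05, and edgeR with the group as the sole term called 0 of 10 and 0 of all genes, with 0 and 327 at an unadjusted p under 0.05. The 10 log2 fold changes ran from -0.12 to 0.13, with a median of -0.08 and 7 negative, beside a median of 0.00 and 49.4% negative over all tested genes. SUN2 and LMNA had opposite signs in the tables and the other 8 the same sign, where 41.4% of all tested genes had opposite signs. The groups of 3 libraries overlapped for each of the 10, where 7.7% of all tested genes had groups that did not overlap in CPM. The 95% intervals of the 10 ran at the outside from 0.856-fold (LMNB1) to 1.21-fold (SYNE1). Across all the fits with 1 library left out, the outermost bounds were 0.819-fold (LMNB1) and 1.3-fold (SYNE1). With the group as the sole term they were 0.750-fold (EMD) and 1.39-fold (SUN2).

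**Figure D2:**
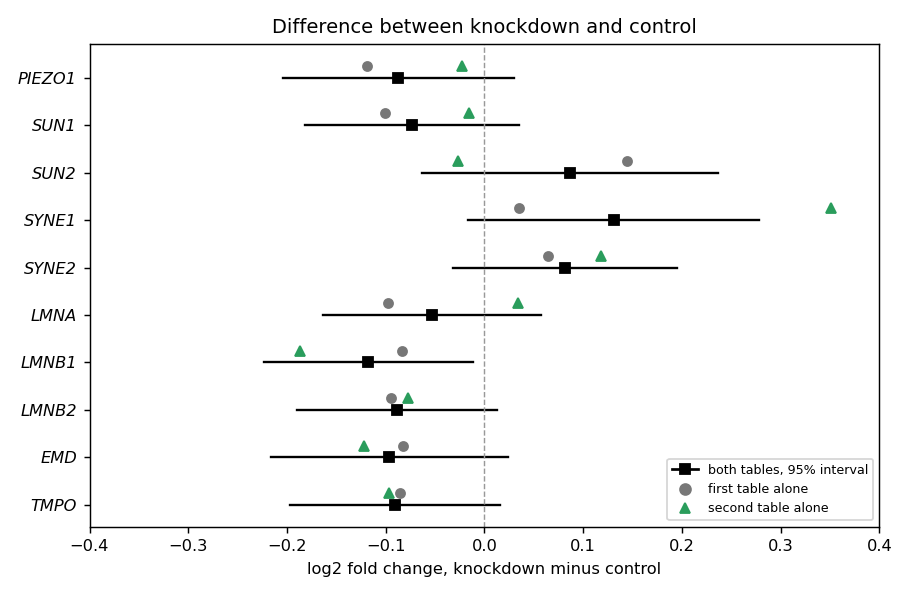
Log2 fold change of each gene, knockdown minus control: squares with lines are the fit over both tables with its 95% interval, circles the first table alone and triangles the second. Every interval but that of LMNB1 (-0.22 to -0.01) spans 0, and SYNE1 shows the widest gap between the tables (0.03 and 0.35).

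PIEZO1 (ENSG00000103335, chromosome 16, 88715338 to 88785220, minus strand, hg38) stood at 167, 156 and 145 CPM in control replicates 1 and 2 and the second table's control. The knockdowns, in the same order, held 140, 158 and 143 CPM. The highest library was a control, the lowest a knockdown, and the other 4 were intermixed. The means were 156 ± 10.9 and 147 ± 9.61 CPM (SD, n = 3), and the log2 fold change was -0.09 (95% interval -0.20 to 0.03, edgeR adjusted p = 0.529). Within the tables it was -0.12 and -0.02, the first table given first here and below, and it ran from -0.14 (without knockdown replicate 2) to -0.03 (without knockdown replicate 1) with 1 library left out. GENCODE 29 places the antisense gene AC138028.4 over 12.6% of the PIEZO1 exon bases on the other strand; the strand setting of the counting is not given in the sources used here, so reads of such overlapping genes could not be told apart. It also lists 2 pseudogenes named after PIEZO1 and 2 after TMPO, whose reads could be shared. The 3 tested genes whose log2 CPM, centred within each table, followed PIEZO1 most closely over the 6 libraries were L3MBTL2 (Pearson r = 0.999), NALF2 (0.998) and FBXO10 (0.998). With 6 libraries centred within each table, few values vary freely, so a high r says little. An r over 0.95 was reached by 127 of the 13629 tested genes.

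The SUN genes of the inner nuclear membrane did not pass, and SUN2 differed by more between the tables than between the groups. SUN1 (ENSG00000164828, chromosome 7, 816615 to 896435, plus strand) had 246, 228 and 240 CPM among the controls and 224, 218 and 238 CPM among the knockdowns. Each knockdown library lay within or just under the range of the controls, with means of 238 ± 9.21 and 227 ± 9.89 CPM (SD, n = 3). The log2 fold change was -0.07 (-0.18 to 0.03, edgeR adjusted p = 0.587), and -0.10 and -0.02 within the tables. With 1 library left out it lay between -0.10 (without the second table's control) and -0.03 (without control replicate 1). GENCODE 29 places GET4, a gene on the same strand, over 15.6% of the SUN1 exon bases. It places GTPBP1, on the other strand, over 10.5% of those of SUN2. In all, 6 of the 10 genes overlapped exons of another gene, among them TMPO (8.30% by TMPO-AS1) and LMNB2 (4.73% by TIMM13). SUN2 (ENSG00000100242, chromosome 22, minus strand) had 43.0, 45.1 and 64.1 CPM among the controls and 50.0, 47.3 and 62.9 CPM among the knockdowns. Both libraries of the second table were above all 4 of the first. The log2 fold change with knockdown was 0.09 (-0.06 to 0.24, edgeR adjusted p = 0.659), with 0.14 and -0.03 within the tables; with 1 library left out it lay between 0.04 (knockdown replicate 1 dropped) and 0.15 (the second table's knockdown dropped). The gene model of SUN2 ran from 38733290 to 38794143 with 8354 exon bases in the first table, but began at 38734725 with 6489 bases in the second, so its counts were taken over different bases.

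The giant nesprins were the other genes with positive values. SYNE1 (ENSG00000131018, chromosome 6, 152121687 to 152637801 in the first table, minus strand) had 68.7, 61.4 and 52.1 CPM among the controls and 65.8, 67.3 and 66.5 CPM among the knockdowns. The knockdowns were close together and lay inside the range of the controls, whose lowest value came from the second table. The log2 fold change was 0.13 (-0.02 to 0.28, edgeR adjusted p = 0.428). It fell to 0.03 without either library of the second table and reached 0.21 without control replicate 1. Within the tables it was 0.03 and 0.35, the latter from a pair of libraries with no test of its own. The test of the difference between tables (the interaction of group and table) gave SYNE1 a value of 0.32 with an unadjusted p of 0.0413 and an adjusted p of 1.00 in edgeR. That test called 0 of the 10 genes, where 0.00734% of all genes passed. Of the 10, SYNE1 alone had an unadjusted p under 0.05, beside 628 of all 13629 tested genes. The one gene that the test called, ITPRIPL2, is named after its value was seen. SYNE2 (ENSG00000054654, chromosome 14, 63761899 to 64226433, plus strand) had 133, 125 and 135 CPM among the controls and 137, 133 and 146 CPM among the knockdowns. The highest 2 libraries were knockdowns, and the third knockdown equalled a control to 3 digits. Its log2 fold change was 0.08 (-0.03 to 0.20, edgeR adjusted p = 0.556), and 0.06 and 0.12 within the tables.

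**Figure D3:**
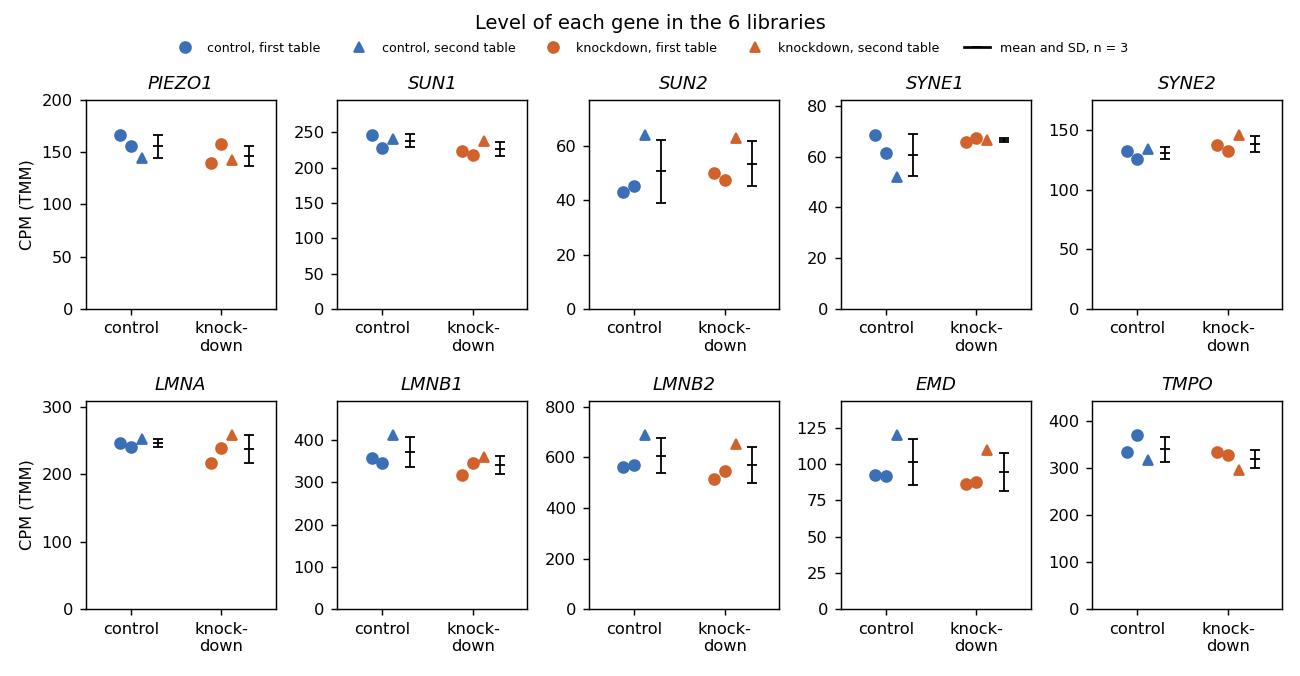
CPM with TMM factors (axes from 0) of each gene in the 3 control (blue) and 3 knockdown (orange) libraries, circles for the first table and triangles for the second, with the mean and SD of each group of 3. Groups overlap in all 10 panels, and in SUN2, LMNA, LMNB1, LMNB2 and EMD both triangles stand above the circles.

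The 3 lamin genes had negative values, and none passed the test. LMNA (ENSG00000160789, chromosome 1, 156082573 to 156140081 in the first table, plus strand) had 247, 240 and 251 CPM among the controls and 216, 239 and 257 CPM among the knockdowns. The knockdowns spread to both sides of the controls. Its log2 fold change was -0.05 (-0.16 to 0.06, edgeR adjusted p = 0.726), with -0.10 and 0.03 within the tables. It was -0.10 without the second table's control and -0.0034 without knockdown replicate 1. LMNB1 (ENSG00000113368, chromosome 5, 126776623 to 126837020, plus strand), a B-type lamin that stays farnesylated, had 356, 347 and 411 CPM among the controls and 318, 346 and 361 CPM among the knockdowns. In each table the knockdowns were below the controls of that table, while across tables the groups overlapped. The closest were knockdown replicate 2 at 346 CPM and control replicate 2 at 347 CPM. The means were 371 ± 34.4 and 341 ± 21.6 CPM (SD, n = 3). The log2 fold change was -0.12 (-0.22 to -0.01, edgeR adjusted p = 0.295, unadjusted 0.0308). Within the tables it was -0.08 and -0.19, and with 1 library left out it ran from -0.17 (without knockdown replicate 2) to -0.08 (without the second table's knockdown). LMNB2 (ENSG00000176619, chromosome 19, 2427638 to 2456959, minus strand), the other B-type lamin gene, had 562, 572 and 687 CPM among the controls and 516, 547 and 651 CPM among the knockdowns. As with LMNB1, the knockdowns were below the controls of the same table, by a log2 fold change of -0.09 (-0.19 to 0.01, edgeR adjusted p = 0.439), with -0.09 and -0.08 within the tables. The share of all tested genes with such an order within tables was not counted, here or for the genes below.

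The LEM-domain genes EMD and TMPO, whose proteins hold the DNA-bridging factor BANF1 at the lamina, gave values close to those of LMNB2. EMD (ENSG00000102119, chromosome X, 154379273 to 154381574 in the first table, plus strand) had 92.5, 92.0 and 120 CPM among the controls and 86.4, 87.8 and 110 CPM among the knockdowns. Knockdowns were below the controls of their table in both tables. The log2 fold change was -0.10 (-0.22 to 0.02, edgeR adjusted p = 0.489), with -0.08 and -0.12 within the tables. TMPO (ENSG00000120802, chromosome 12, 98515579 to 98550351, plus strand) had 334, 370 and 317 CPM among the controls and 334, 328 and 297 CPM among the knockdowns. Control replicate 1 and knockdown replicate 1 were equal to 3 digits, and the highest library was a control. The log2 fold change was -0.09 (-0.20 to 0.02, edgeR adjusted p = 0.456), with -0.09 and -0.10 within the tables. It moved to -0.13 without control replicate 1 and to -0.04 without control replicate 2.

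More genes passed for the table than for the group, among these 10 as among all tested genes (2.47% for the group). In the same edgeR fit, 5 of the 10 passed for the table, where 38.2% of all tested genes did. SUN2 (log2 difference 0.46, second minus first), EMD (0.36), LMNB2 (0.28) and LMNB1 (0.17) were higher in the second table, and TMPO (-0.15) was lower. SUN2 and EMD were counted on gene models of different length in the tables, as were SYNE1, SYNE2 and LMNA; LMNB1, LMNB2 and TMPO had the same model in both. What set the tables apart was not tested.

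The balance between paralogs within a library was also compared, since a ratio of reads per kilobase does not depend on the scaling of libraries. Such a ratio does depend on the gene models, of 8141 bases for LMNA in the first table, 3633 for LMNB1 and 5395 for LMNB2. The ratio of LMNA to the sum of LMNB1 and LMNB2 was 0.150, 0.146 and 0.128 across the controls and 0.145, 0.149 and 0.144 across the knockdowns. The control of the second table was lowest and the other 5 lay close together. The ratio of LMNB2 to LMNB1 was 1.06, 1.11 and 1.13 across the controls and 1.09, 1.07 and 1.22 across the knockdowns. SUN2 to SUN1 was 0.248, 0.280 and 0.487 across the controls and 0.317, 0.307 and 0.484 across the knockdowns, with both second-table libraries far above the rest. Part of that gap is the length divided by, since the SUN2 model was 8354 bases long for the first table but 6489 for the second, while that of SUN1 had 11850 in both. In reads alone, SUN2 to SUN1 was 0.175, 0.197 and 0.267 across the controls and 0.223, 0.217 and 0.265 across the knockdowns. SYNE2 to SYNE1 was 2.84, 3.0 and 3.73 across the controls and 3.06, 2.90 and 3.17 across the knockdowns. The groups overlapped in each of the 4 ratios. The differences, knockdown minus control within tables, were 0.05, 0.03, 0.16 and -0.06 on the log2 scale in the order above. That of SUN2 to SUN1 was 0.085 without control replicate 1 and 0.245 without either library of the second table. Exact two-sided permutation tests within tables gave p = 0.833, 0.667, 0.333 and 0.833 (0.833 each after adjustment over the 4). The 12 arrangements allow no p below 0.167, so a difference could not have passed.

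**Figure D4:**
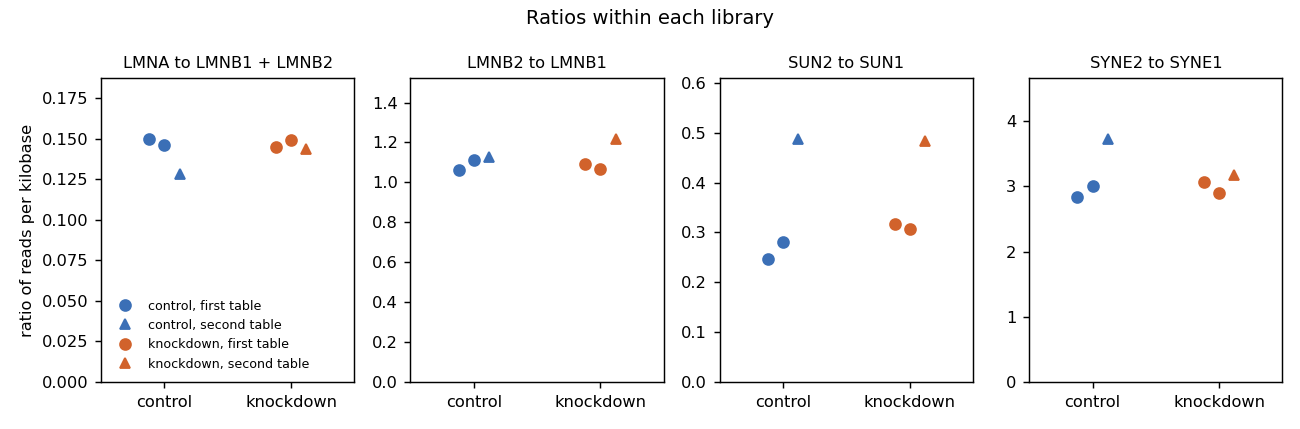
Ratios of reads per kilobase within each library (axes from 0), controls in blue and knockdowns in orange, circles for the first table and triangles for the second. The 2 triangles of SUN2 to SUN1 (0.487 and 0.484) stand apart from the circles (0.248 to 0.317), with a SUN2 model of 6489 bases for the triangles and 8354 for the circles, and control and knockdown overlap in each panel.

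Around these 10 genes, 4 genes of the envelope and its upkeep fell and none rose, out of 6 lists with 108 entries. That is 4.17% of the 96 tested, beside 2.47% of all tested genes that passed and 1.83% that fell, and is a description of these lists. In the lamin-processing list, 1 of 12 tested genes fell and 11 did not pass (median log2 fold change -0.03, 2 at an unadjusted p under 0.05). It was ZMPSTE24, the protease that removes the farnesylated end of prelamin A, whose last coding bases are shown above. ZMPSTE24 had 123, 128 and 81.0 CPM among the controls and 99.8, 105 and 73.3 CPM among the knockdowns, below the controls within each table. Its log2 fold change was -0.25 (-0.37 to -0.13, edgeR adjusted p = 0.0143), with -0.29 and -0.14 within the tables. The call ended without control replicate 2 or knockdown replicate 1 (adjusted p up to 0.186) and with the group as the sole term (adjusted p = 1.00). The methyltransferase ICMT, which acts on the same lamin ends, had -0.12 (adjusted p = 0.338), and FNTA, a farnesyltransferase subunit, had 0.11 (adjusted p = 0.519); these, and other genes given below as named after their values were seen, fall outside the rule for naming.

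In the list of envelope sealing (the ESCRT-III machinery that closes holes in the envelope, with its partners), 1 of 16 fell and 15 did not pass (median -0.01, 3 at an unadjusted p under 0.05). CHMP2B, an ESCRT-III subunit, had 84.6, 94.2 and 79.1 CPM among the controls and 70.2, 73.3 and 61.7 CPM among the knockdowns. Each knockdown was below each control, where 7.7% of all tested genes had groups that did not overlap in either direction. The log2 fold change of CHMP2B was -0.33 (edgeR adjusted p = 0.00193), with -0.32 and -0.36 within the tables, and the call ended without control replicate 2 (adjusted p = 0.0571) and with the group as the sole term (1.00). CHMP2B has further roles at endosomes. Of 32 nuclear pore genes 2 fell and 30 did not pass, where 1.83% of all tested genes fell. The median was -0.06 with 26 of 32 negative (81.3%, against 49.4% of all tested genes), and 7 (21.9%) had an unadjusted p under 0.05, against 14.1%. Those that fell were NDC1, a membrane anchor of the pore (-0.21, edgeR adjusted p = 0.0305), and NUP155, of the inner ring (-0.19, edgeR adjusted p = 0.0413). Each of these calls was kept in 1 of 6 edgeR fits with 1 library left out, the one without control replicate 1, and the adjusted p reached 0.359 for NDC1 and 0.407 for NUP155 in the others. Both calls also ended with the group as the sole term (1.00).

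The remaining lists had no gene past the threshold in the edgeR fit with the table as a covariate. Of 19 LINC complex genes and partners beside the 10, 14 were tested, with a median of -0.08, 12 negative and 2 at an unadjusted p under 0.05. KIF5B, a kinesin heavy chain that nesprins can recruit, had -0.17 (edgeR adjusted p = 0.0694). It passed in DESeq2 (0.0485) and in edgeR with no filter beyond 1 read (0.0411) or without control replicate 1 (0.0444), and its adjusted p reached 1.00 in the other alternatives. PLEC, the cytoskeletal linker plectin, had a log2 fold change of -0.08 with -0.20 and 0.19 within the tables. SUN3, SUN5, SYNE4 and KASH5, linkers of germ cells and of other tissues and named after their values were seen, averaged 0 to 0.571 CPM and were not tested. Of 10 tested genes of the inner nuclear membrane and lamina (median 0.01, 4 negative, 1 at an unadjusted p under 0.05), the heterochromatin protein gene CBX5 had 0.12 (adjusted p = 0.281) and the lamin B receptor LBR -0.02. Of 18 genes of other mechanically gated channels and their partners, 12 were tested (median 0.03, 4 negative, 1 at an unadjusted p under 0.05). The polycystin gene PKD1 and the channel kinase TRPM7, the most abundant, had 0.02 and 0.01. PIEZO2, the paralog of PIEZO1, named after its value was seen, averaged 14.5 CPM and had 0.12 (adjusted p = 0.735). Of the abundant genes KIF5B, PLEC, CBX5, LBR, PKD1 and TRPM7, DESeq2 with the table as a covariate called KIF5B alone.

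**Figure D5:**
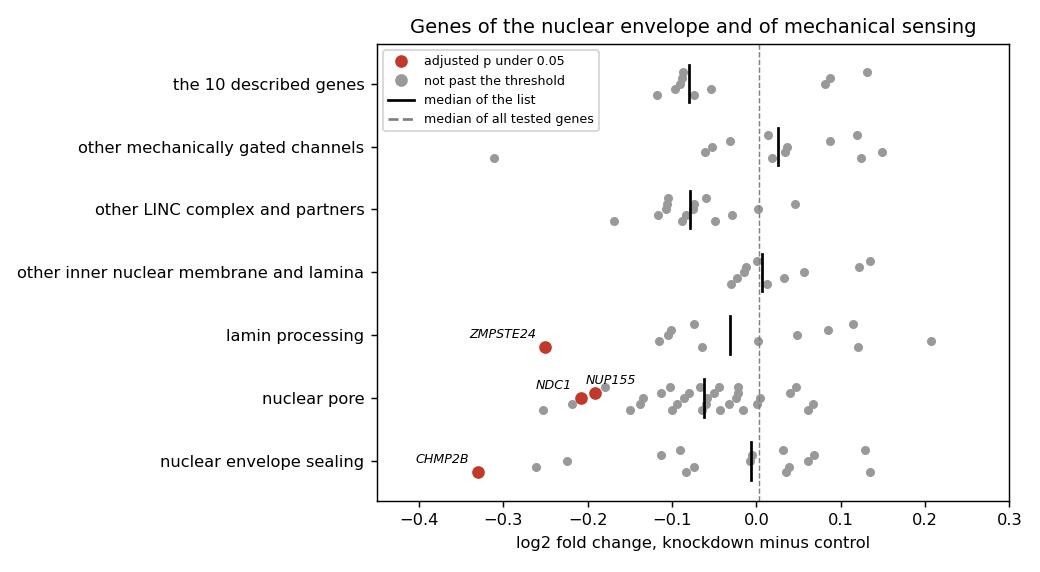
Log2 fold change (knockdown minus control) of the tested genes of each list, red where the adjusted p was under 0.05, with the list's median as a black line and the median of all tested genes dashed. The red points are ZMPSTE24 (-0.25), NDC1 (-0.21), NUP155 (-0.19) and CHMP2B (-0.33), and none of the 10 described genes is red.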

How the data were processed

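The authors deposited 2 tables of unnormalized whole-number counts per gene. Alignment with HISAT2 to hg38 and counting with HTSeq are named, without versions, per the submitters' processing notes. The FPKM deposited by the authors equalled the count over gene length and library total, to within 1.6e-04 percent where recomputed, and served for levels only. The tables were joined by Ensembl identifier; 2734 of the 19922 shared genes, 5 of the 10 described among them, had another model length in each. Control and knockdown were compared in edgeR 4.0.16 under R 4.3.3 (factors by TMM, filterByExpr, quasi-likelihood test, the table as a covariate, Benjamini-Hochberg adjustment over 13629 genes, threshold 0.05). CPM carry TMM factors. DESeq2 1.42.0 and limma 3.58.1 (voom) were alternatives, with other scaling, filters, terms and each library left out. For the named list genes, UBE2A and UBE2B these were added after seeing the data. Members and lists were chosen with earlier results of these data known. Named genes were the 10, UBE2A, UBE2B, the up to 3 list members past the threshold with the largest change, or the 2 most abundant where none passed, and the 3 most like PIEZO1 (log2 CPM, prior count 2). KLC1, of the LINC partners list, is not analysed here. Separate cultures are not stated, so p-values measure the spread between these libraries only, which may be technical.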

Additional observations from a re-analysis of the deposited data

How the results depend on the processing

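The count of 0 of the 10 genes held in each of the 14 alternatives run, and each of the 10 kept the sign of its fold change in those 14 (adjusted p at least 0.131). The alternatives fixed for them included a replicate block, which treats same-numbered libraries as pairs. The numbers covered 2 pairs, whose deviations from the group means had a correlation of 0.01 across genes, so they were not taken as pairing; with the block 0 of 10 and 363 of all genes were called. Over all genes 336 passed (87 higher, 249 lower), 0 with the group as the sole term (327 at an unadjusted p under 0.05), 204 in DESeq2, 154 in the first table alone and 98 to 420 with 1 library left out: leaving out control replicate 2 gave 118, knockdown replicate 1 gave 98, the second table's control gave 151 and its knockdown 145. The interaction called 1 gene, and 0 to 2 with 1 library left out. In the second table alone the signs of SUN2 (-0.026) and LMNA (0.034) turned. In the first table alone, and without either library of the second, the ratio of LMNA to the B-type lamins turned to -0.0082, LMNB2 to LMNB1 to -0.010 and SYNE2 to SYNE1 to 0.029; leaving out 1 library gave -0.0082 to 0.08, -0.010 to 0.06 and -0.11 to 0.029. Among uncalled list genes PKD1 (0.02) turned to -0.048 in the first table alone, -0.026 or -0.013 when control replicate 2 or knockdown replicate 1 was dropped, and -0.048 or -0.045 when the second table's control or its knockdown was. TRPM7 (0.01) turned to -0.017 without control replicate 2 and -0.028 without knockdown replicate 1. LBR (-0.02) turned to 0.011 in the first table alone, 0.018 or 0.00051 when control replicate 2 or knockdown replicate 2 was dropped, and 0.010 or 0.014 when the second table's control or its knockdown was. The cause of these changes was not tested.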
